A study of Caenorhabditis elegans with 4 samples.

Results

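Fatty acid synthesis and elongation were followed through 10 genes of the nematode Caenorhabditis elegans, namely sbp-1, pod-2, fasn-1, let-767, elo-1, elo-2, elo-3, elo-5, elo-6 and elo-9. They were taken by gene name from the 46904 genes listed in each count table, and all 10 were found and had enough reads to be tested. RNA of whole wild-type (Bristol N2) hermaphrodites, about 200 worms in each group, was sequenced as poly(A) RNA in 2 libraries labelled OP50 + MH-1 and 2 libraries labelled OP50. OP50 is a strain of Escherichia coli, the standard food of laboratory worms, and MH-1 is a lactic acid bacterium, Lactiplantibacillus sp. The treatment label names MH-1 together with OP50, while the design and protocol texts name it alone. The texts also differ on age and feeding, giving worms 4 days old after 1 day of feeding in one place and worms 1 day old kept for 2 days on the bacteria in another. The labels do not tell whether replicates were separate cultures, so a p-value here reflects library-to-library spread that could be purely technical.

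The titles of the samples and the count headers inside the tables contradict each other: in each of the 4 tables the header gives the opposite food. Groups follow the titles, and the libraries are called MH-1 and OP50 libraries after them. If the headers were right, each "higher" would read "lower" with an unchanged fold and p-value. Total counts per library ran from 15771890 to 21572225. The libraries held RNA of the tissues of a whole worm: 59 listed markers of intestine, epidermis, embryo, germline, muscle and neurons all had reads in at least 1 library, and 1 further intestine marker was not found under its symbol. Several of those markers moved with the groups, and their values stand beside fasn-1 below. Since whole worms were used, fewer cells of a type and less RNA per cell cannot be told apart.

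Animals build fatty acids from acetyl-CoA. Acetyl-CoA carboxylase makes malonyl-CoA, fatty acid synthase joins malonyl units into palmitate, and elongases then lengthen the chain in cycles that each need a ketoacyl-CoA reductase. Worms also take fatty acids from the bacteria they eat, while the branched-chain fatty acids that elo-5 and elo-6 help to make come largely from the worm's own synthesis. In C. elegans sbp-1, the homologue of the mammalian SREBP transcription factors, activates many genes of fat synthesis and desaturation.

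Of the 10 genes, 1 rose in the MH-1 libraries, the fatty acid synthase fasn-1, and 0 fell (edgeR quasi-likelihood test, Benjamini-Hochberg over 12640 tested genes, adjusted p under 0.05). At an unadjusted p under 0.05 pod-2 was the 1 lower gene, and DESeq2 and limma-voom called fasn-1 and no other of the 10. No share of all tested genes at that unadjusted threshold is given, so it does not show whether the 10 stand out. Over all tested genes 1.82% passed as higher and 0.332% as lower, 2.15% in all. The carboxylase pod-2 was lower in both MH-1 libraries after scaling to library size, without passing, the reductase let-767 and the regulator sbp-1 were nearly level, and the 6 elongases did not pass. Log2 fold changes were positive for 6 genes and negative for 4, with a median of 0.05, beside 6368 positive, 6272 negative and a median of 0.003 over all tested genes. The groups did not overlap for 3 of the 10 genes, higher for fasn-1 and lower for pod-2 and elo-9. Over all tested genes the groups were separate and higher for 24.4%, and separate and lower for 21.6%, 46.0% in all, so 3 of 10 is no larger a share than in the table as a whole.

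**Figure D1:**
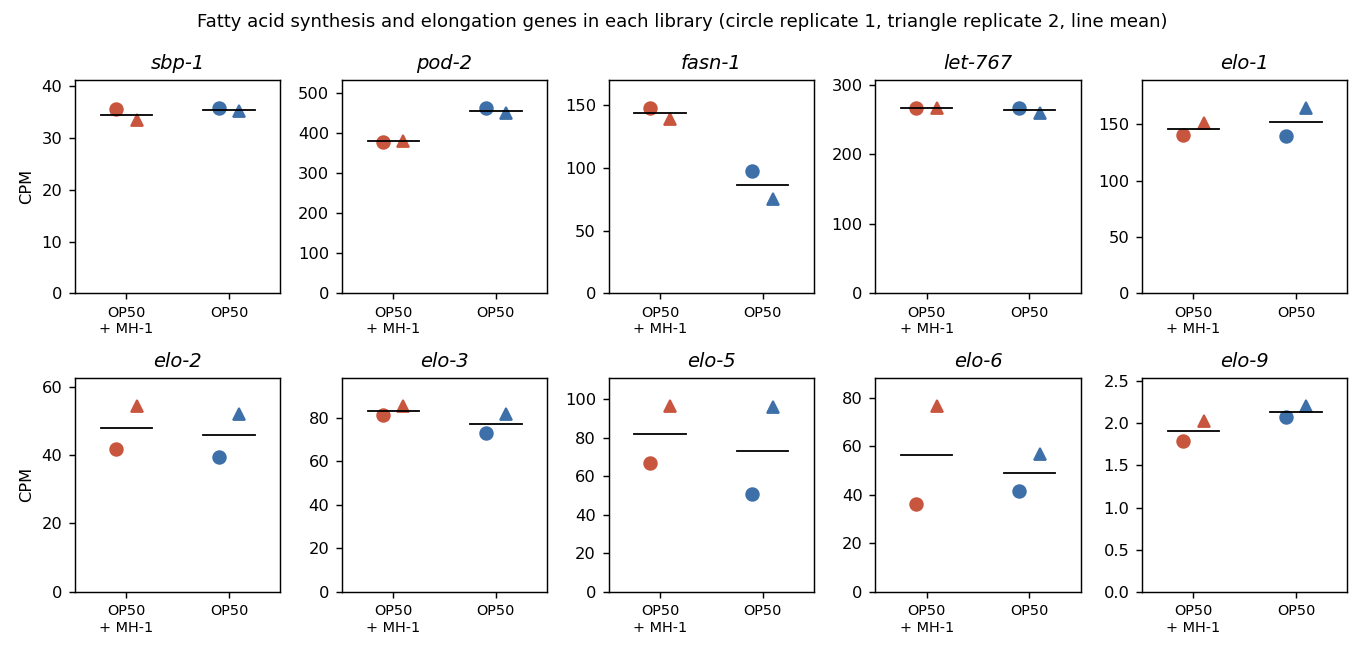
Library-size scaled counts (CPM) of the 10 genes in each library, on axes that start at 0, with OP50 + MH-1 in red on the left and OP50 in blue on the right. Circles are replicate 1, triangles replicate 2 and lines the group means; for fasn-1 both red points, at 148 and 139 CPM, lie above both blue points, at 97.5 and 75.3 CPM.

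The regulator came out nearly equal in both groups. sbp-1 (WBGene00004735, ce11, chromosome III, 11428367 to 11442566, minus strand) had 35.5 and 33.4 CPM in the MH-1 libraries, against 35.8 and 35.1 CPM in the OP50 libraries, where CPM are read counts divided by the library size after TMM scaling. The groups overlapped, with all 4 libraries within a narrow range. The log2 fold change was -0.04 ± 0.10 (SE), with a 95% interval from -0.27 to 0.19 and an adjusted p of 0.901 (edgeR). That interval spans folds of 0.828 to 1.14. Its exons share 48 bases with Y47D3B.6 on the other strand, a gene with 28 to 77 counts per library against 573 to 725 for sbp-1. These are levels of the transcript. SBP-1 is known to be activated by cleavage of its protein, which such counts do not measure.

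The carboxylase stood lower in both MH-1 libraries, by less than the threshold asks. pod-2 (WBGene00004076, chromosome II, 1136781 to 1152701, plus strand) encodes acetyl-CoA carboxylase and was named for embryonic polarity defects of its mutants. It had 378 and 379 CPM in the MH-1 libraries, against 463 and 448 CPM in the OP50 libraries. The groups were well apart, and the gap between them was wider than that between the replicates of either group. The log2 fold change was -0.27 ± 0.08 (SE), or 0.831-fold, with a 95% interval from -0.45 to -0.09 that does not reach 0. Its p of 0.00968 before adjustment became an adjusted p of 0.165 over all tested genes (edgeR), and pod-2 passed under none of 14 alternatives, where the adjusted p ran from 0.0628 to 0.506. Both MH-1 libraries were lower, and the log2 fold change stayed between -0.29 and -0.25 with any 1 library left out. An overlapping gene on the other strand, W09B6.5, shares 109 exon bases and had 0 to 3 counts per library.

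The synthase was the gene of the 10 that passed. fasn-1 (WBGene00009342, chromosome I, 8975384 to 8986534, minus strand) encodes the large single protein that makes palmitate. It had 148 and 139 CPM in the MH-1 libraries, against 97.5 and 75.3 CPM in the OP50 libraries. Both MH-1 libraries were above both OP50 libraries, and the gap between the OP50 libraries was the wider of the replicate gaps. Means were 144 ± 6.37 CPM in the MH-1 libraries and 86.4 ± 15.7 CPM in the OP50 libraries (SD, n = 2 each). Its log2 fold change was 0.73 ± 0.12 (SE), which is 1.66-fold with a 95% interval of 1.36 to 2.03, at an adjusted p of 0.0364 (edgeR). The raw counts behind these values were 2392 and 3016 with OP50 + MH-1 and 1738 and 1330 with OP50, and no other listed gene shares exon bases with fasn-1.

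The call of fasn-1 depended on both MH-1 libraries. With MH-1 replicate 1 left out its adjusted p was 0.0903, and with replicate 2 of that group left out 0.0594 (edgeR). Leaving out OP50 replicate 1 or 2 gave 0.000311 or 0.0195. Its log2 fold change was 0.69 without MH-1 replicate 1, 0.78 without MH-1 replicate 2, 0.93 without OP50 replicate 1 and 0.56 without OP50 replicate 2, so the direction held in all 4 fits. In each of these fits 1 library stands alone in its group and is assumed to vary like the other group. The gene passed in the 10 alternatives that kept all libraries, and over all 14 the adjusted p ran from 1.66e-12 to 0.0903. With 2 libraries in each group an exact two-sided permutation test cannot go below 0.333.

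Summed markers of the epidermis and of embryos were higher in the same libraries as fasn-1. The 10 epidermis and molting markers summed to 835 and 651 CPM in the MH-1 libraries, against 449 and 360.2 CPM in the OP50 libraries. Of these markers 5 passed as higher (dpy-7, noah-1, noah-2, mlt-11 and sqt-3), with 5 higher and 0 lower at an unadjusted p under 0.05 (edgeR). The collagen col-19, the marker of this list with the most CPM, did not pass (log2 fold change 0.11, adjusted p = 0.664, edgeR). It had 310 and 344 CPM with OP50 + MH-1, against 321 and 285 CPM with OP50. Log2 fold changes were positive for 7 of the 10 and negative for 3. The negative ones were dpy-13 at -0.93, rol-6 at -0.46 and nas-37 at -0.23, and rol-6 had no read in OP50 replicate 2. The 10 embryo markers summed to 479 and 449 CPM with OP50 + MH-1, against 359 and 311 CPM with OP50, and 4 passed as higher (hch-1, pha-4, sym-1 and ceh-27), with 6 higher and 1 lower at an unadjusted p under 0.05. The 9 intestine markers found summed to 2286 and 2561 CPM with OP50 + MH-1, against 3131 and 3335 CPM with OP50. Without asp-1 the other 8 summed to 1185 and 1134 CPM with OP50 + MH-1, against 1299 and 1239.6 CPM with OP50. Of the 9 intestine markers 0 passed, with 4 lower at an unadjusted p under 0.05 (edgeR). The 10 oocyte and germline markers summed to 7666 and 7893 CPM with OP50 + MH-1, against 9171 and 8763 CPM with OP50, and 0 passed, with 2 lower at an unadjusted p under 0.05. Body wall muscle markers summed to 2514 and 2669 CPM with OP50 + MH-1, against 2388 and 2161 CPM with OP50, with 1 of 10 passing as higher and 6 higher at an unadjusted p under 0.05. Neuron markers summed to 308 and 274 CPM with OP50 + MH-1, against 288 and 288 CPM with OP50, with 0 called and 0 at an unadjusted p under 0.05. For the marker counts at an unadjusted p under 0.05 no share of all tested genes is given, so they cannot be set against the table as a whole. The part of these cell types in the difference of fasn-1 was not tested.

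**Figure D2:**
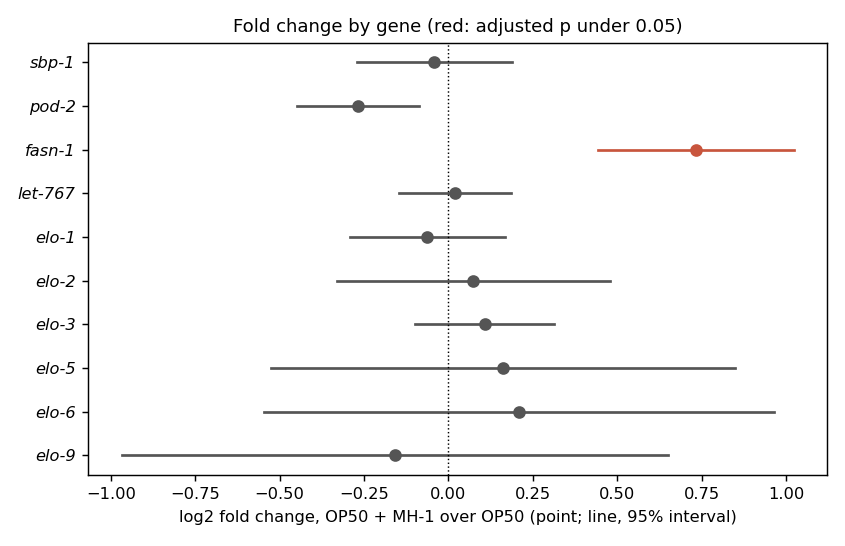
Log2 fold change of each gene, OP50 + MH-1 over OP50, as a point with its 95% interval. The interval of fasn-1, in red, runs from 0.44 to 1.02, that of pod-2 from -0.45 to -0.09, and the other 8 intervals include 0.

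The carboxylase and the synthase act in sequence, and their ratio differed between the groups. Per length, as reads per kilobase scaled to library size (RPKM), fasn-1 stood at 0.319 and 0.298 of pod-2 in the MH-1 libraries, against 0.171 and 0.136 in the OP50 libraries. The mean ratio was 0.308 ± 0.0145 with OP50 + MH-1 and 0.154 ± 0.0245 with OP50 (SD, n = 2 each). This ratio combines the higher fasn-1 with the lower pod-2, a difference that did not pass, and has no test of its own. Its groups had to be separate, since those of both genes were, in opposite directions, so it adds no further result. The ratio of let-767 to pod-2 per length was 3.33 and 3.31 with OP50 + MH-1, against 2.71 and 2.73 with OP50. As let-767 was nearly level, this repeats the difference of pod-2.

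By profile over the 4 libraries, the genes most like fasn-1 were kin-32, nlr-1 and mua-3. They were the nearest of 5048 tested genes with a gene-class name and at least 5 CPM, by Euclidean distance between log2 CPM values centred on each gene's mean. mua-3, which encodes a transmembrane protein of epidermal attachments, had 46.3 and 40.9 CPM with OP50 + MH-1, against 29.8 and 23.8 CPM with OP50, at a distance of 0.0798. kin-32, a homologue of focal adhesion kinase, had 22.2 and 20.5 CPM with OP50 + MH-1, against 14.8 and 11.6 CPM with OP50, at a distance of 0.0524. nlr-1, a neurexin-like gene, had 10.3 and 9.27 CPM with OP50 + MH-1, against 6.28 and 5.15 CPM with OP50, at a distance of 0.0797. None of the 3 passed, with adjusted p of 0.0569 for mua-3, 0.103 for kin-32 and 0.153 for nlr-1 (edgeR), and likeness over 4 libraries is a weak description.

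The reductase had the narrowest interval of the 10 genes. let-767 (WBGene00002891, chromosome III, 6338508 to 6340228, minus strand) encodes a ketoacyl-CoA reductase needed for branched and long-chain fatty acids in C. elegans. It had 267 and 266 CPM in the MH-1 libraries, against 267 and 260.0 CPM in the OP50 libraries. The groups overlapped within a few CPM. Its log2 fold change was 0.02 ± 0.07 (SE), with a 95% interval from -0.15 to 0.19 and an adjusted p of 0.942 (edgeR), so folds outside 0.903 to 1.14 lie beyond the interval. Its exons share 114 bases on the same strand with rpn-13, a proteasome gene with 2182 to 2842 counts per library, and the sources used here do not tell how reads in that stretch were counted.

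Among the elongases of straight chains, elo-1 and elo-2 differed more between replicates than between groups. elo-1 (WBGene00001239, chromosome IV, 9526359 to 9528350, plus strand), which lengthens polyunsaturated fatty acids, had 140.5 and 151 CPM with OP50 + MH-1, against 139.7 and 165 CPM with OP50. elo-2 (WBGene00001240, chromosome IV, 17466060 to 17467408, minus strand), which acts on palmitate, had 41.7 and 54.4 CPM with OP50 + MH-1, against 39.4 and 52.1 CPM with OP50. In both genes the groups overlapped and replicate 2 was the higher library of each group. The log2 fold change was -0.06 ± 0.10 (SE) for elo-1, with a 95% interval from -0.29 to 0.17. For elo-2 it was 0.07 ± 0.17 (SE), with an interval from -0.33 to 0.48. The direction of both turned in at least 1 fit with a library left out.

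The branched-chain elongases varied most. elo-5 (WBGene00001243, chromosome IV, 5374598 to 5377137, minus strand) had 66.8 and 96.5 CPM with OP50 + MH-1, against 50.5 and 95.9 CPM with OP50. elo-6 (WBGene00001244, chromosome IV, 5386629 to 5388559, minus strand) had 36.3 and 76.5 CPM with OP50 + MH-1, against 41.3 and 56.8 CPM with OP50. For both, each group held 1 low and 1 high library, the high one being replicate 2, and the groups overlapped. For elo-5 the log2 fold change was 0.16 ± 0.29 (SE), with a 95% interval from -0.53 to 0.85 (adjusted p = 0.863, edgeR). That of elo-6 was 0.21 ± 0.32 (SE), with an interval from -0.55 to 0.96 (adjusted p = 0.836, edgeR).

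Neither direction is settled by these libraries. The log2 fold change of elo-5 was -0.23 without OP50 replicate 1 and -0.13 without MH-1 replicate 2. Without OP50 replicate 2, the library at 95.9 CPM, it was 0.69 and passed (adjusted p = 0.0361, edgeR), beside a range of 0.0361 to 0.996 over the 14 alternatives. For elo-6 it was -0.44 without MH-1 replicate 2 and 0.65 without MH-1 replicate 1. The genes lie 9491 bases apart on the same strand, with 15 listed genes between them, of which 3 are protein-coding in the Ensembl annotation of the same build. Per length, elo-5 stood at 1.78 and 1.22 of elo-6 with OP50 + MH-1, against 1.18 and 1.63 with OP50, so they did not keep 1 ratio across libraries. elo-5 shares 76 exon bases with F41H10.3 on the other strand, a gene with 1591 to 3280 counts per library, and reads of that stretch can be told apart only if they were counted by strand.

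The remaining elongases, whose substrates are less well defined, were close to level or too low to judge. elo-3 (WBGene00001241, chromosome IV, 7237722 to 7239976, plus strand) had 81.3 and 85.5 CPM with OP50 + MH-1, against 73.1 and 81.7 CPM with OP50. Its groups just overlapped, and its log2 fold change of 0.11 ± 0.09 (SE) had a 95% interval from -0.10 to 0.31. elo-9 (WBGene00001247, chromosome II, 14959675 to 14964108, minus strand) had 1.80 and 2.03 CPM with OP50 + MH-1, from 29 and 44 counts, against 2.07 and 2.21 CPM with OP50, from 37 and 39 counts. The groups did not overlap, yet the log2 fold change of -0.16 ± 0.34 (SE) had an interval from -0.97 to 0.65. That interval includes folds from 0.511 to 1.57.

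**Figure D3:**
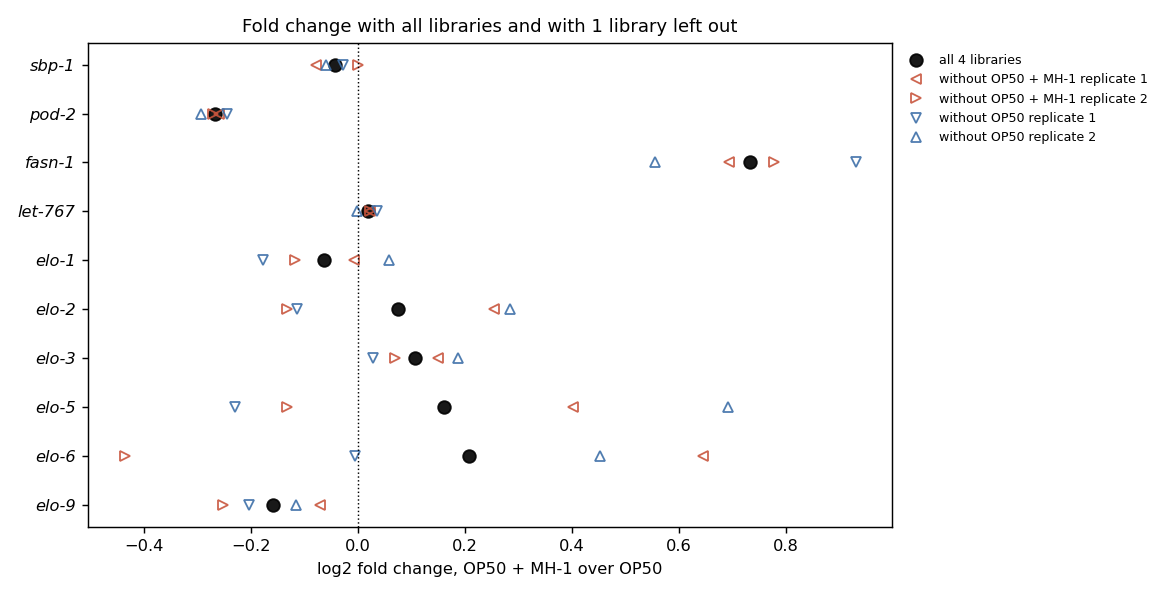
Log2 fold change of each gene, OP50 + MH-1 over OP50, with all 4 libraries (black) and with 1 library left out (open triangles, red for OP50 + MH-1 and blue for OP50 libraries). fasn-1 stays between 0.56 and 0.93 and pod-2 between -0.29 and -0.25, while sbp-1, let-767, elo-1, elo-2, elo-5 and elo-6 have points on both sides of 0.

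All 6 elongases had more CPM in replicate 2 than in replicate 1 in both groups, a pattern that 26.2% of all tested genes showed and that was noticed after the values were seen. The ratio of replicate 2 to replicate 1 for elo-6 was 2.11 with OP50 + MH-1 (exact 95% interval 1.92 to 2.32, counting error only) and 1.38 with OP50 (1.25 to 1.51). For elo-5 it was 1.44 (1.34 to 1.56) with OP50 + MH-1 and 1.90 (1.75 to 2.06) with OP50. For elo-2 it was 1.30 (1.18 to 1.44) with OP50 + MH-1 and 1.32 (1.20 to 1.46) with OP50. Those of elo-3 with OP50 + MH-1 and of elo-9 in both groups lay within counting error. fasn-1, sbp-1 and let-767 went the other way, as did 28.7% of all tested genes. The ratio of fasn-1 was 0.939 (0.890 to 0.991) with OP50 + MH-1 and 0.773 (0.719 to 0.830) with OP50. Those of sbp-1 and let-767 lay within counting error in both groups. Summed epidermis and embryo markers were lower in replicate 2 of each group. Summed intestine markers were higher there, with asp-1 included, which had 1101 and 1427 CPM with OP50 + MH-1, against 1832 and 2096 CPM with OP50. The other 8 intestine markers summed to 1185 and 1134 CPM with OP50 + MH-1, against 1299 and 1239.6 CPM with OP50, lower in replicate 2 of each group. The part of these cell types in the pattern was not tested, and the labels do not say what libraries with the same number share.

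Per length the 10 genes spanned a wide range. let-767 was the most abundant at 184 and 183 RPKM with OP50 + MH-1, against 183 and 179 RPKM with OP50, and 95.2% of tested genes had a lower mean. elo-1 came next at 129 and 138 RPKM with OP50 + MH-1, against 128 and 151 RPKM with OP50. elo-5 followed with a mean over the 4 libraries of 80.7 RPKM, then elo-3 with 76.7, pod-2 with 60.9, elo-6 with 57.0, elo-2 with 45.1, fasn-1 with 13.6 and sbp-1 with 10.3 RPKM, and elo-9 was last at 1.77 and 2.01 RPKM with OP50 + MH-1 and 2.05 and 2.18 RPKM with OP50. Neighbours in this order overlapped between elo-5 and elo-3, between pod-2 and elo-6, between elo-6 and elo-2, and between fasn-1 and sbp-1, and were separate elsewhere. This order is by the mean of all 4 libraries, and the group means change it in 2 places. fasn-1 averaged 17.0 RPKM with OP50 + MH-1, above sbp-1 at 10.2, and 10.2 RPKM with OP50, just below sbp-1 at 10.4. elo-6 averaged 60.9 RPKM with OP50 + MH-1, above pod-2 at 55.3, and 53.0 RPKM with OP50, below pod-2 at 66.6. By the mean of all 4 libraries 52.3% of tested genes were below fasn-1 and 22.5% below elo-9. Levels per length use the exon length given in the tables, the longest being that of fasn-1 at 8427 bases, and depend on which transcripts are in use.

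**Figure D4:**
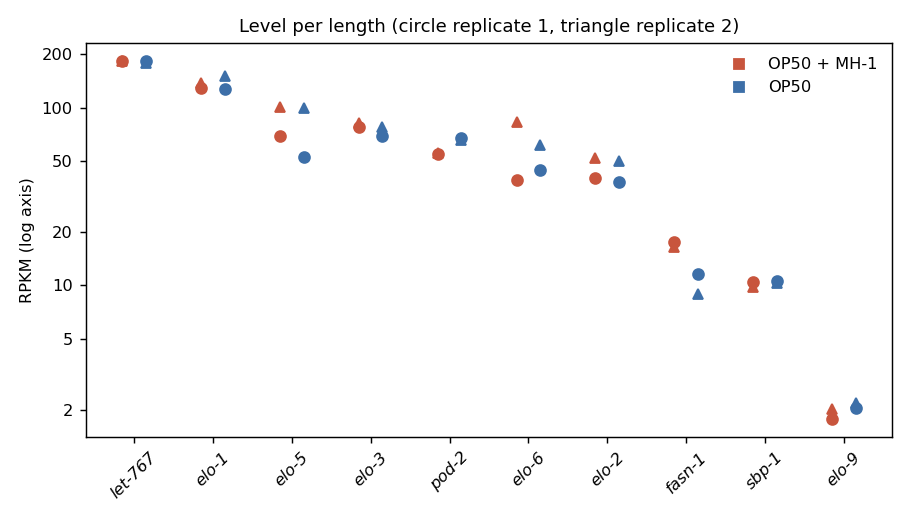
Level per length of the 10 genes in RPKM on a log axis, ordered by the mean of the 4 libraries, with OP50 + MH-1 (red) left of OP50 (blue); circles are replicate 1 and triangles replicate 2. let-767 lies highest, between 179 and 184 RPKM, elo-9 lowest, between 1.77 and 2.18 RPKM, and fasn-1 is the gene whose red points both stand clearly above the blue ones.

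Genes of related lipid lists were mostly on the lower side in the MH-1 libraries. The lists mix synthesis with supply, storage, breakdown and regulation, so their counts do not describe synthesis alone. Of 61 genes in 6 related lists, 56 were tested, and 4 passed as lower and 0 as higher (edgeR). At an unadjusted p under 0.05 these counts were 12 lower and 0 higher, DESeq2 called 7 lower and 0 higher, and limma-voom 4 lower and 0 higher. Over all 12640 tested genes edgeR passed 0.332% as lower and 1.82% as higher. DESeq2 called 90 of them lower and 365 higher, and limma-voom 27 lower and 135 higher. No share of all tested genes at an unadjusted p under 0.05 is given here, for these lists, the markers or the 10 genes. Counts at that threshold therefore cannot be set against the table as a whole. Log2 fold changes of the 56 list genes were negative for 49 and positive for 7, with a median of -0.13, beside a median of 0.003 over all tested genes. The lists were drawn up with earlier results of these data known, so the counts are a description. Markers of the intestine and of the germline were on the lower side as well. Of 9 intestine markers 7 were negative, with a median log2 fold change of -0.15. All 10 oocyte and germline markers were negative with separate groups, with a median of -0.14. Over all tested genes the groups were separate and lower for 21.6%. The part of these tissues in the lists' values was not tested.

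Among the desaturases and their electron carriers, 3 of 10 tested genes fell, with a list median of -0.22. The stearoyl-CoA desaturases, which act on a product of fasn-1 and elo-2, were among them. fat-7 had 9.72 and 14.6 CPM with OP50 + MH-1, against 55.9 and 85.7 CPM with OP50 (log2 fold change -2.53, adjusted p = 0.00972, edgeR). fat-6 had 220.0 and 204 CPM with OP50 + MH-1, against 334 and 373 CPM with OP50 (-0.74, adjusted p = 0.0147, edgeR), and reads may be split unevenly between these close paralogs. The delta-6 desaturase fat-3 had 79.3 and 71.9 CPM with OP50 + MH-1, against 142 and 114 CPM with OP50 (-0.76, adjusted p = 0.0281, edgeR). The call of fat-3 was lost without MH-1 replicate 1 (0.0501) or replicate 2 (0.0697). In all 3 genes both MH-1 libraries were the lower ones, opposite to fasn-1.

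Of the 12 partners of SBP-1 and lipid transcription factors, 1 fell. This was pmt-1, a phosphoethanolamine methyltransferase of phosphatidylcholine synthesis, a pathway known in C. elegans to act on SBP-1. It had 213 and 197 CPM with OP50 + MH-1, against 329.8 and 349 CPM with OP50 (log2 fold change -0.73 ± 0.08, SE, adjusted p = 0.0118, edgeR). The other 11 did not pass, 9 of them with negative values, and the list median was -0.15. The mediator subunit mdt-15, a coactivator of SBP-1, had 72.3 and 92.4 CPM with OP50 + MH-1, against 93.2 and 87.6 CPM with OP50, and the groups overlapped; it was picked for its role after its values were seen.

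No gene passed in the other 4 lists in the main edgeR fit, though some did under alternatives given at the end. At an unadjusted p under 0.05, a threshold given here without a share of all tested genes, 5 of their 34 tested genes were lower and 0 higher. All 5 of them were acyl-CoA synthetases, storage or ether lipid enzymes. DESeq2 called 1 of those, the lipid droplet gene plin-1, as lower (named for this call, after its values were seen), and limma-voom called 0. Of the elongation cycle partners 5 of 10 could be tested, with a median of -0.09, and the largest values were -0.19 ± 0.12 for stdh-1, a relative of let-767, and 0.13 ± 0.12 for acbp-1, an acyl-CoA binding protein (log2 ± SE). The elongase elo-7 had no read in any library, which allows up to 3 counts in each, between 0.138 and 0.186 CPM. elo-8, stdh-2, stdh-3 and stdh-4 were too low to test, and elo-8 had 20 and 7 counts with OP50 + MH-1, against 5 and 6 with OP50. In the supply of acetyl-CoA, biotin and NADPH the median was -0.10 over 10 genes, with the AMP-activated kinase subunit aak-1 at -0.23 ± 0.11 and the ATP citrate lyase acly-2 at -0.19 ± 0.09. Among the 7 genes for branched-chain precursors the median was -0.07, with the aminotransferase bcat-1 at -0.35 ± 0.15 and the isovaleryl-CoA dehydrogenase ivd-1 at -0.09 ± 0.08. Of the 12 acyl-CoA synthetases, storage and ether lipid enzymes, 11 were negative, with a median of -0.25. The groups were separate and lower for 9 of the 12, beside 21.6% of all tested genes. The largest changes of this list were acl-7, an acyltransferase of ether lipid synthesis, at -0.53 ± 0.14 and acs-3 at -0.36 ± 0.18.

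**Figure D5:**
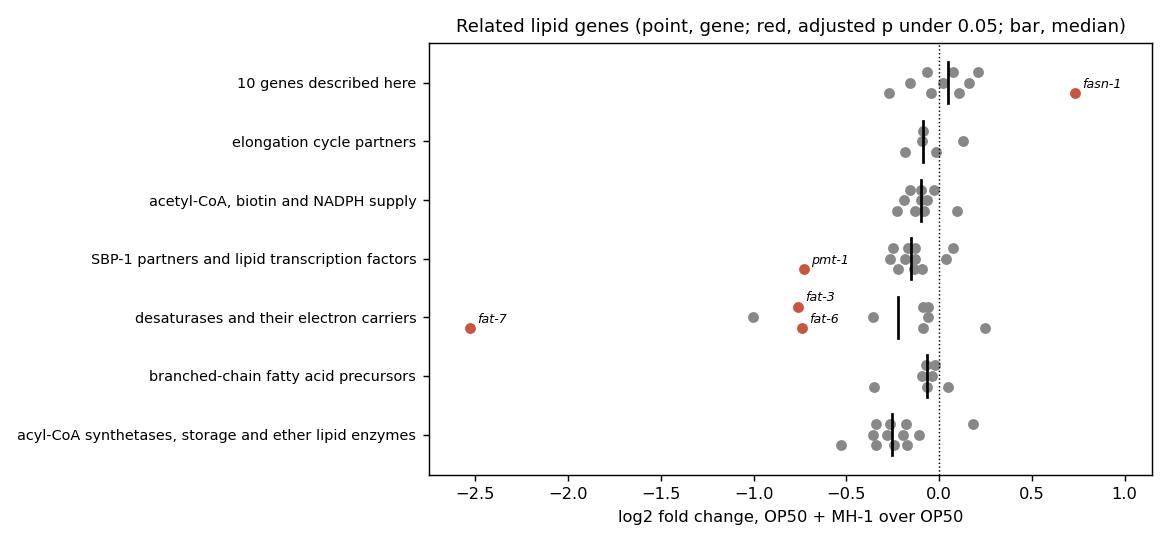
Log2 fold changes, OP50 + MH-1 over OP50, of the 10 genes and of 6 lists of related lipid genes. Each point is a gene, red where the adjusted p is under 0.05, and the bar is the list median, which is 0.05 for the 10 genes and between -0.25 and -0.07 for the 6 lists.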

How the data were processed

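The deposited values are raw read counts per gene, not normalized by the authors, whole numbers in 4 tables of 1 library each. The tables also hold exon lengths, gene names and coordinates. The processing used tools that include featureCounts 2.0.1, STAR 2.7.10a, cutadapt 3.7, Trimmomatic 0.39 and Trim Galore 0.6.7, on ce11 (WBcel235), per the submitters' processing notes. The sources used here do not give their order, the strand setting or the rule for reads with several matches, so genes that overlap are uncertain. Coordinates are those of the tables. Biotypes came from the Ensembl annotation of that build.

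The test was edgeR's quasi-likelihood test (version 4.0.16, R 4.3.3) after filterByExpr (minimum count 10, total 15) and TMM scaling, without covariates, and p-values were adjusted over the 12640 remaining genes by Benjamini-Hochberg. The SE of each log2 fold change is its absolute value over the root of F, and intervals use the t distribution with the fit's degrees of freedom. CPM and RPKM use TMM-adjusted library sizes. The fit was also run on simulated counts with the same dispersion for every gene, which does not measure error rates in these libraries. Every pair of libraries differed by more than sampling noise (chi-square over degrees of freedom 10.1 or more). That value was 24.75 between the MH-1 libraries and 10.07 between the OP50 libraries. MH-1 replicate 2 was nearer to OP50 replicates 1 and 2, at 19.61 and 18.93, than to MH-1 replicate 1. Alternatives covered scaling, filter, tool (DESeq2 1.42.0, limma-voom with limma 3.58.1), dispersion settings, a replicate block and each library left out; a fit of protein-coding genes was added after seeing the data, since the tables give no gene type. Named genes are the 10, every called gene of each related list or otherwise its 2 largest changes, and the 3 nearest profiles of each called gene among the 10. Outside this rule mdt-15, plin-1, fat-2, fat-5, ads-1, elo-7 and elo-8 were named after their values were seen, as were overlapping genes and markers. Members, lists and this rule were chosen with earlier results of these data known. Sequence features are not analysed here. Figures were drawn with matplotlib 3.10.9 in Python 3.11.15.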

Additional observations from a re-analysis of the deposited data

How the results depend on the processing

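Of 140 recomputed fold changes (10 genes, 14 alternatives), 127 kept their direction and side of the threshold. fasn-1 kept its direction in all 14 and its call in 12, and was the only called gene of the 10 in the 10 alternatives with all libraries. With libraries left out, between 0 and 2 of the 10 genes were called higher and 0 lower (0 without either MH-1 library; fasn-1 and elo-5 without OP50 replicate 2). Directions reversed in 10 cases, none of them called. One was sbp-1 at 0.00203 with total counts only, which moved the median of all genes to 0.05. The others came with libraries left out, where log2 fold changes ran from -0.07879 to 0.0008527 for sbp-1, -0.0018 to 0.03642 for let-767, -0.1781 to 0.05831 for elo-1, -0.1326 to 0.2854 for elo-2, -0.2295 to 0.6919 for elo-5 and -0.4358 to 0.6463 for elo-6. Over all genes, 230 higher and 42 lower became 815 and 297 with no filter on low counts, 365 and 90 with DESeq2, 135 and 27 with limma-voom, and 99 to 395 and 20 to 95 with a library left out. The labels do not say what same-numbered libraries share, and 2 pairs do not settle whether they are paired. Their deviations correlated at 0.209 over genes, and the replicate block gave 450 higher and 109 lower genes, with fasn-1 called (adjusted p = 0.00206, edgeR) and pod-2 not (0.0628). The cause of these changes was not tested. Of 252 list values, 236 held, and the median of the elongation cycle partners was 0.04 without OP50 replicate 2, a fit that adds elo-8 to the list, and -0.02 over the 5 genes tested with all libraries. In the lists without a call, bcat-1, plin-1 and ads-1 passed as lower with no filter on low counts. With the replicate block bcat-1 and plin-1 passed as lower (edgeR). The spread of elo-5, elo-6 and elo-2 between replicates, and the counts of elo-9, limit what can be seen in them.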
